A study of Mus musculus with 64 samples.

Results

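CD127 is the alpha chain of the interleukin-7 receptor, encoded by Il7r (GRCm38 chromosome 15, 9505788 to 9530176, minus strand). It was 1 of 11 surface proteins counted with sequence-tagged antibodies on single immune cells of the mouse colon, and it was followed here in all 9 protein libraries, over 130442 cells that passed the count filters. The hosts were SCID mice, unable to make T or B lymphocytes of their own, and all 9 libraries carry the label of a CD45RBhi transfer, in which naive T cells are given and go on to cause colitis. There was 1 untreated library for each of weeks 0 to 7 and 1 treated library at week 7, from animals that received anti-IL-12p40 starting at day 10. That antibody binds the chain which IL-12 and IL-23 have in common. Each library came from pooled colon tissue of 3 animals, sorted as EpCAM- and CD45+ cells, so that a week is 1 pool and no week has a second pool to compare it with. Cell types were not labelled beyond the immune fraction.

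The receptor chain pairs with the common gamma chain to bind IL-7, and with another chain to bind TSLP. IL-7 keeps naive and memory T cells alive, and T cells usually lower CD127 when they are activated. Most innate lymphoid cells, which carry CD90.2 but no CD3, also carry CD127, while neutrophils and macrophages are not known for it. KLRG1, a lectin-like inhibitory receptor, is found on effector T cells and on innate lymphoid cells of the type 2 class, and CD103 is the integrin chain of intraepithelial and other mucosal lymphocytes.

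Values are raw antibody counts per cell and centred log ratios. For the latter, ln(count + 1) was taken and the average of that value over the cell's 11 antibodies was subtracted, so that a difference of 0.405 is 1.5 times relative to the rest of the panel. On that scale a bright protein lowers the value of every other protein of its cell, and Ly-6G, a neutrophil protein that lymphoid cells lack, is given beside CD127 for that reason. Between 11534 and 21229 barcodes and 12914066 to 28723452 counts were recorded per library, and any pair of libraries had 30 to 110 barcodes in common. CD127 made up between 0.339% of a library's counts at week 2 and 1.06% at week 0, and the median cell carried 12, 6, 2, 11, 5, 9, 9 and 13 CD127 counts at weeks 0 to 7 and 9 in the treated library. The week 2 library was the lowest in counts and in share. Ashman's D, the distance between both components of a mixture in units of their spread, was 1.56 for CD127 across the pooled cells, under the value of 2 that marks a clean split. Within single libraries it was above 2 at weeks 0, 1, 4 and 7 (2.09, 2.28, 2.37 and 2.14) and below 2 in the other 5, so that no one threshold split the cells of every library. CD127 levels are given as means and percentiles of whole populations, not as shares of positive cells. Ly-6C was also under 2 across the pooled cells, at 1.82, so the gates and percentages that use its threshold below do not rest on a clean split.

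Of the gated populations, 3 carried the description. CD90.2- cells (1022 to 8398 per library) were the reference for cells outside the T and innate lymphoid lineages. CD3+CD4+ cells, the phenotype of helper T cells, numbered 1 at week 0 and 601 to 10433 in the other libraries. CD3-CD90.2+ cells, from which all carrying CD11b, CD11c or CD64 were removed, numbered 312 to 6988, and innate lymphoid cells fall in this gate. The gates did not use CD127, although CD127 enters each cell's mean, and the contrasts were also computed without it. CD90.2 was not required of CD3+CD4+ cells, so that up to 1436 cells (33.8% of the CD90.2- cells, at week 5) stood in both the reference and the CD3+CD4+ population.

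Among CD3-CD90.2+ cells CD127 was highest. Their median raw counts were 14, 7, 5, 14, 10, 11, 11 and 14.5 at weeks 0 to 7 and 11 with anti-IL-12p40. The mean centred log ratios were 0.23, 0.14, -0.39, -0.36, -0.50, -0.56, -0.84 and -0.29, and 0.07 with treatment. Only weeks 0 and 1 and the treated library were above 0, the average of the panel, and week 6 was the lowest. The spread between cells was broad: at week 0 the 25th percentile was 8 counts and the 75th was 22.

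CD3+CD4+ cells carried less. Their median counts were 5, 2, 10, 8, 10, 9 and 13 at weeks 1 to 7 and 9 with treatment, on median totals of 839.5 to 1915 antibody counts per cell. Mean centred log ratios were -0.99, -1.48, -1.05, -0.97, -0.88, -1.02 and -0.61, and -0.74 with treatment. Week 7 was the highest of the untreated libraries and week 2 the lowest. Within these cells Ashman's D was above 2 at weeks 2, 4 and 7 (2.26, 2.14 and 2.01) and 1.57 to 1.98 at the other weeks.

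In CD90.2- cells the median counts were 5, 3, 1, 12, 3, 6, 6 and 8, and 4 with treatment. Their mean centred log ratios were -0.93, -0.87, -1.68, -1.06, -1.81, -1.27, -1.50 and -1.30, and -0.66 with treatment. These levels follow no order by week, and the treated library was the highest of the 9. Counts on cells that should lack the receptor were not near 0: cells with CD11b and Ly-6G, a neutrophil phenotype, had medians of 16, 8, 2, 18, 3, 6, 8 and 12 raw counts, and 6 with treatment, on totals of 1404 to 4575. Raw counts alone therefore do not set the populations apart, and at week 3 neutrophil-phenotype cells had more CD127 counts (18) than CD3-CD90.2+ cells (14) on a median total 4575 against 959. As a share of their counts, CD3-CD90.2+ cells gave 0.799% to 1.44% to CD127, CD3+CD4+ cells 0.353% to 1.09% and CD90.2- cells 0.193% to 1.07%.

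**Figure D1:**
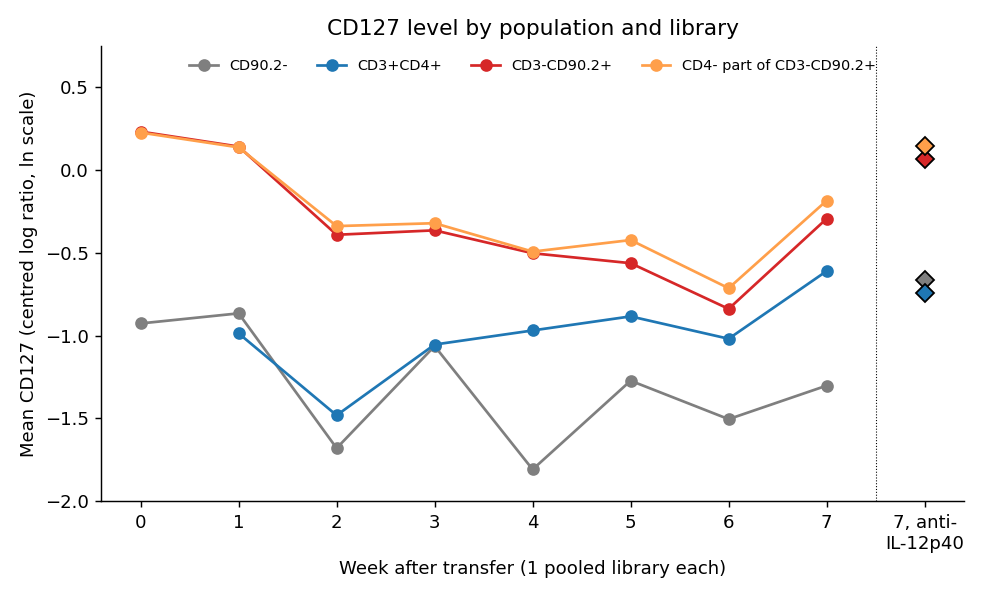
Mean centred log ratio of CD127 (ln scale) against week after transfer, 1 pooled library per point, for 4 populations, with the anti-IL-12p40 library as diamonds at the right. CD3-CD90.2+ cells lie above CD90.2- and CD3+CD4+ cells in every library. CD3+CD4+ cells lie above CD90.2- cells by 0.39 to 0.84 in the untreated libraries from week 4 on, and in the anti-IL-12p40 library the difference is -0.08.

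**Figure D2:**
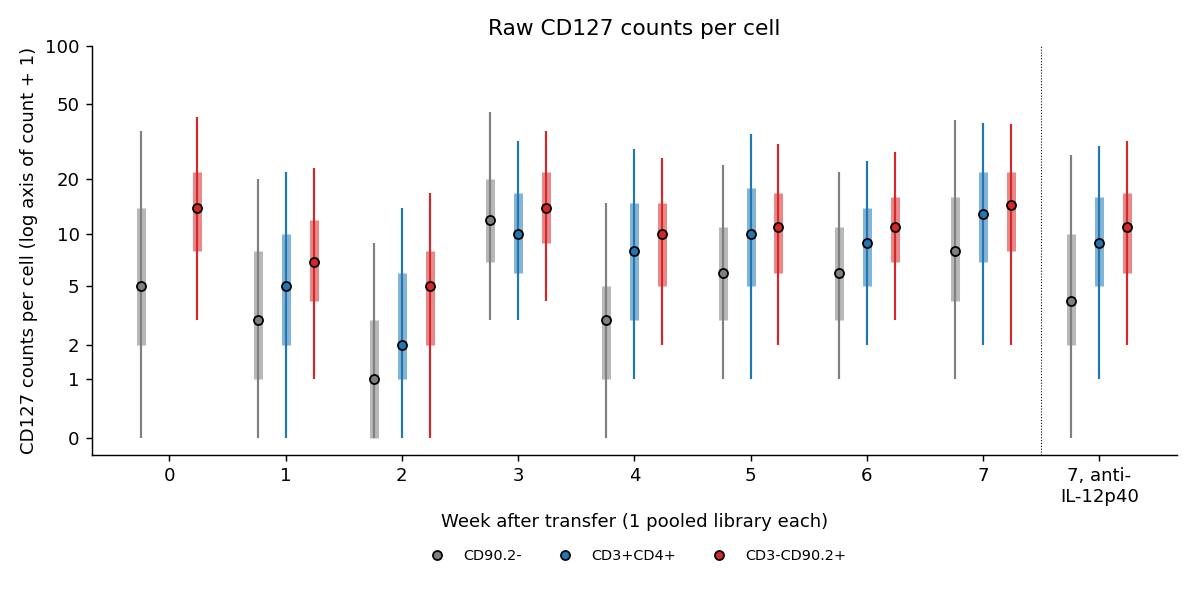
Raw CD127 counts per cell on a log axis of the count plus 1, for 3 populations in each library. Points are medians, thick bars run from the 25th to the 75th percentile and thin bars from the 5th to the 95th, and the populations overlap in every library.

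Set against the reference in the same library, CD127 was higher in CD3-CD90.2+ cells in 8 of 8 untreated libraries. The difference was 1.16, 1.01, 1.29, 0.70, 1.31, 0.71, 0.67 and 1.01 at weeks 0 to 7, with a mean of 0.98 ± 0.26 (SD, n = 8; exact sign-flip permutation p = 0.0078, two-sided; adjusted p = 0.025). The smallest p that 8 libraries allow is 0.0078. Without any 1 of weeks 2, 3, 4 and 5 the adjusted p was 0.05, at the threshold, with differences of 0.93 to 1.02, and the same 4 omissions brought the contrast with CD3+CD4+ cells and both KLRG1 contrasts to the same threshold. In the contrast with CD90.2- cells 66.7% of the 6 antibodies not used for gating passed, so that passing does not set CD127 apart from the panel. Ly-6G differed by -0.49, but the reference holds CD11b+Ly-6G+ cells, 1.15% of it at week 0 and 46.3% at week 7. Ly-6G is therefore not a background measure there. A CD3-CD90.2+ cell drawn at random was above a CD90.2- cell of its library with a probability of 0.78 to 0.91. Taken as a ratio to Ly-6G within each cell, among cells under the Ly-6G threshold, the CD127 difference was 0.95 (adjusted p = 0.048 in the exact sign-flip permutation test).

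For CD3+CD4+ cells the margin over the reference was smaller and did not pass. It was -0.12, 0.20, 0.01, 0.84, 0.39, 0.49 and 0.69 at weeks 1 to 7, positive in 6 of 7 libraries, with a mean of 0.36 ± 0.35 (SD, n = 7; exact sign-flip permutation p = 0.047, adjusted p = 0.055; 75% of 8 antibodies passed). Weeks 1 and 3 showed no margin, and weeks 4 to 7 each showed one. This call turned on the reference: against the CD90.2- CD3- cells that carry CD11b, CD11c or CD64 the mean difference was 0.55 (adjusted p = 0.025), against CD90.2- CD11c+CD64- cells it was 0.34 and did not pass (adjusted p = 0.071), and without week 1 it was 0.44 (adjusted p = 0.039, exact sign-flip permutation test). With counts scaled to the library median total it was 0.24 (adjusted p = 0.24 in the same exact test). Against CD90.2- CD3- CD4- cells, none of which are CD3+CD4+ cells, it did not pass either.

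CD3-CD90.2+ cells exceeded CD3+CD4+ cells in 7 of 7 libraries. The difference was 1.13, 1.09, 0.69, 0.47, 0.32, 0.18 and 0.32 at weeks 1 to 7, with a mean of 0.60 ± 0.38 (SD, n = 7; exact sign-flip permutation p = 0.016, adjusted p = 0.025; 100% of 5 antibodies passed). It was large at weeks 1 and 2 and small from week 5 on, and 0.81 in the treated library. Ly-6G was also higher on this scale, by 0.32, and the ratio of CD127 to Ly-6G differed by 0.25 (adjusted p = 0.048, exact sign-flip permutation test). In raw counts the populations were 7 against 5 at week 1, 5 against 2 at week 2 and 14.5 against 13 at week 7.

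The CD3-CD90.2+ gate changed in makeup over time. CD4- cells were 6465 of its 6988 cells in the first library and 99 of 312 in the last untreated one, while CD4+ cells under the CD3 threshold were 1696 of 1855 at week 6. CD4- cells had mean centred log ratios of 0.23, 0.14, -0.34, -0.32, -0.49, -0.42, -0.71 and -0.18, and 0.14 with treatment. CD4+ cells of the gate had 0.30, 0.20, -0.83, -0.63, -0.51, -0.64, -0.85 and -0.34, and -0.41 with treatment. The CD4- cells were higher in 6 of 8 libraries, by 0.15 ± 0.19 on average (SD, n = 8), which did not pass (exact sign-flip permutation p = 0.055, adjusted p = 0.062; 60% of 5 antibodies passed). In the same exact permutation test the direction turned relative to Ly-6G, at -0.21 (adjusted p = 0.057), and with cells thinned to 200 counts it was 0.22 (adjusted p = 0.034).

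A population with high CD127 also lay inside the reference. CD90.2- CD3- cells that carried none of CD11b, CD11c and CD64 were picked out after their values were seen and are described with no test. They numbered 857, 814, 460, 515, 235, 630, 107 and 62 at weeks 0 to 7 and 315 in the treated library, and made up 15.2% of the reference at week 0, 17.9% at week 1, 2.80% to 14.8% at weeks 2 to 7 and 30.8% in the treated library. Their median CD127 counts were 15, 8, 4, 10, 5, 7, 6 and 4, and 6 with treatment. At weeks 0 and 1 those medians were within 1 count of CD3-CD90.2+ cells (14 and 7), on median totals of only 195 and 129.5 antibody counts against 1145 and 550.

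In these cells, called unmarked, CD127 made up 6.59% of the counts at week 0 and 5.69% at week 1, and 1.68% to 2.63% at weeks 2 to 7. In CD90.2- CD3- cells with a myeloid protein the share was 0.154% to 0.752% over the untreated libraries, and the median counts were 4, 2, 1, 13, 2, 5, 6 and 8. The unmarked cells had a median of 26 CD90.2 counts at week 0, against 925 in CD3-CD90.2+ cells and 41 in the myeloid cells, and 2 Ly-6G counts, as in CD3-CD90.2+ cells. KLRG1 passed its threshold in 34.7% of them at week 0 and 48.0% at week 1, where the median KLRG1 count was 1. They were not alike across weeks in the other proteins: 76.5% passed the Ly-6C threshold at week 2 and 0.952% to 20.2% at the other untreated weeks, and 65.2% passed that of CD4 at week 5, with a median of 150.5 CD4 counts, against 9.13% to 27.4% at the others. Part of this was shared with CD3-CD90.2+ cells. Of those, 37.6% were over the Ly-6C threshold in the week 2 library, and 0.275% to 1.92% in the rest of the untreated series. The Ly-6C rise was thus not particular to the unmarked cells. The CD4 share of CD3-CD90.2+ cells was 64.0% in the week 5 library, with a median of 147.5 CD4 counts. In the week 6 library the CD4 shares lay apart, 91.4% beside 21.5% in unmarked cells. The name unmarked refers only to CD3, CD90.2, CD11b, CD11c and CD64, and no cell type is given to these cells. Whether their low totals bear on the CD127 share was not tested.

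**Figure D3:**
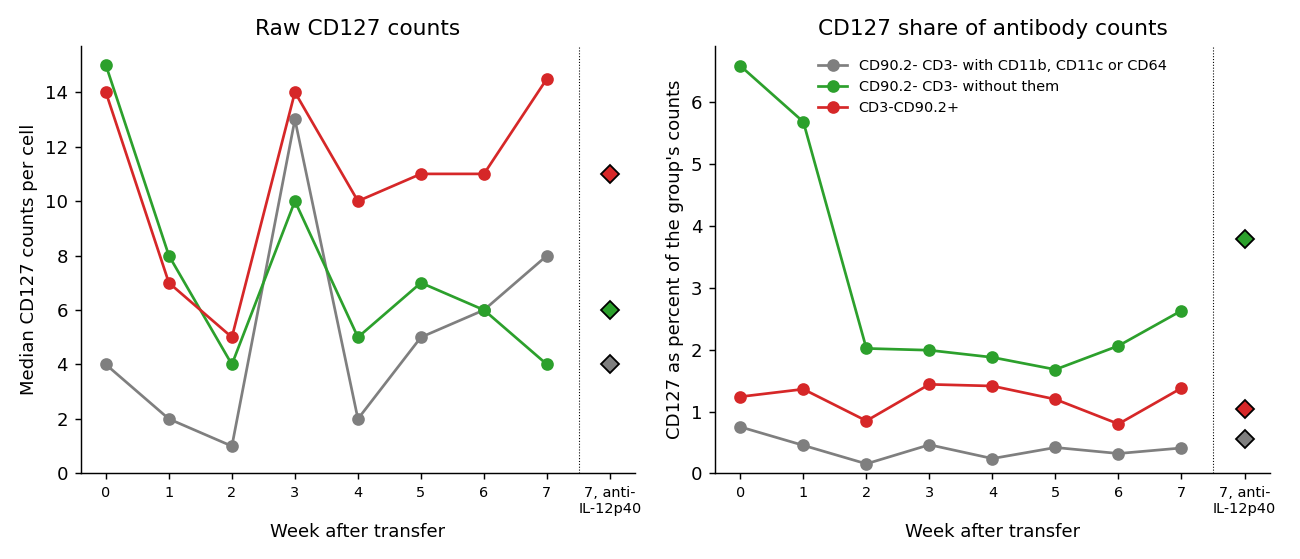
Median raw CD127 counts per cell (left) and CD127 as a percent of all antibody counts (right) against week, for CD90.2- CD3- cells with and without CD11b, CD11c or CD64 and for CD3-CD90.2+ cells, with the anti-IL-12p40 library as diamonds. At weeks 0 and 1 the cells without those proteins have medians of 15 and 8 counts, beside 4 and 2 in the cells with them.

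The upper end of the reference was then computed for all CD90.2- cells and for the CD90.2- CD3- cells with a myeloid protein. The second leaves out CD3+ cells as well as the unmarked ones, so a change is not that of the unmarked cells alone. At week 5, CD3+CD4+ cells were 33.8% of all CD90.2- cells. The 95th percentile of all CD90.2- cells was passed by 6.30%, 5.09%, 39.8%, 29.0%, 56.7%, 23.1%, 37.1% and 44.6% of CD3-CD90.2+ cells at weeks 0 to 7, with the lowest shares at weeks 0 and 1, where the unmarked cells were most frequent. Of CD3+CD4+ cells 0% passed it at week 1 (0 of 601), then 5.06%, 3.29%, 35.3%, 11.5%, 28.4% and 28.7% at weeks 2 to 7. The median over untreated libraries was 33.0% for CD3-CD90.2+ and 11.5% for CD3+CD4+ cells. Against the CD90.2- CD3- cells with a myeloid protein, the medians were 67.2% (50.8% to 79.9%) and 40.1% (7.15% to 64.0%). With counts scaled to the library median total and all CD90.2- cells as the reference they were 8.51% and 1.99%.

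All cells were also placed in 9 exclusive phenotypes and ordered by mean CD127 over the untreated libraries. CD3-CD90.2+ cells stood first at -0.32 ± 0.36 (SD, n = 8 libraries), followed by cells of no defined phenotype at -0.49 ± 0.55 and CD3+CD4- cells at -0.81 ± 0.65. CD3+CD4+ cells averaged -1.0 ± 0.26 and CD11c+CD64- cells, a gate with dendritic cells, -1.21 ± 0.21. Below them came CD11b+Ly-6C+CD64- cells, CD64+Ly-6C- cells and CD11b+Ly-6C+CD64+ cells, the phenotypes of monocytes and macrophages, at -1.33, -1.43 and -1.61, and CD11b+Ly-6G+ cells were last at -1.66 ± 0.35. Of neighbours in this order, only CD11c+CD64- and CD11b+Ly-6C+CD64- cells differed by more than the SD of their difference (0.19 ± 0.06, higher in 5 of 5 shared libraries), so the order between the other neighbours is not resolved.

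In single libraries CD3-CD90.2+ cells were first at weeks 2 to 5 and 7, and second to cells of no defined phenotype at weeks 0 and 1 and to CD3+CD4- cells at week 6. CD3+CD4+ cells moved from rank 4 at week 1 and 5 at weeks 2 and 3 to rank 2 at week 7. Over the 67 points of phenotype and library, the antibody most like CD127 in its mean level was KLRG1 (Pearson r = 0.74), followed by CD90.2 (0.62) and CD103 (0.39), and CD11b was the most unlike (-0.67). Those points share libraries and the centring of each cell, and the values are a description.

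The cells with the highest 5% of CD127 centred log ratios in each library came from different populations over the weeks. CD3-CD90.2+ cells made up 59.3%, 55.6%, 63.6% and 43.9% of them at weeks 0 to 3, and 7.48%, 14.8%, 27.0% and 6.54% at weeks 4 to 7. CD3+CD4+ cells were 0%, 0%, 8.10% and 26.6% of them at weeks 0 to 3, and 83.8%, 76.3%, 65.3% and 90.4% at weeks 4 to 7. Relative to its share of the library, the CD3-CD90.2+ phenotype was in excess among the top cells in every library (1.33 to 4.81 times). CD3+CD4+ cells were at 0, 0.21, 0.45, 1.56, 1.07, 1.18 and 1.03 times at weeks 1 to 7. They were 53.8%, 71.3%, 55.4% and 87.6% of all cells at weeks 4 to 7. At week 4 their share of the top cells was thus well above their share of the library, at 1.56 times. In the later untreated libraries it was closer, at 1.03 to 1.18 times. In the treated library 62.1% of the top cells were CD3-CD90.2+ and 9.32% were CD3+CD4+.

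Within CD3+CD4+ cells CD127 was lower on cells with KLRG1. The difference between KLRG1+ and KLRG1- cells was -0.16, -0.49, -0.40, -0.64, -0.53, -0.36 and -0.50 at weeks 1 to 7, with a mean of -0.44 ± 0.15 (SD, n = 7; lower in 7 of 7; exact sign-flip permutation p = 0.016, adjusted p = 0.025). Median counts were 1 against 3 at week 2, 8 against 12 at week 3, 4 against 9 at week 4, 6 against 11 at week 5, 6 against 9 at week 6 and 8 against 14 at week 7. At week 1, with 54 KLRG1+ cells, the raw medians went the other way, 8.5 against 5. The treated library had -0.53 and medians of 7 against 10.

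All 8 antibodies not used for gating passed in that contrast (100%), and all were lower on KLRG1+ cells. CD103 differed by -0.46, more than CD127, Ly-6G by -0.19 and Ly-6C, the least, by -0.17. A lower value on KLRG1+ cells is therefore not particular to CD127 on this scale. The ratio of CD127 to Ly-6G differed by -0.28 (exact sign-flip permutation p = 0.047, adjusted p = 0.075), and counts scaled to the library's median total by -0.29 (adjusted p = 0.052), so neither passed. CD3+CD4+ cells were also cut into 5 groups of equal size by KLRG1 level, a description added after the contrast was seen. The median CD127 count, averaged over 7 untreated libraries, was 13.1 in the lowest group and 5.00 in the highest, and lower in the highest in 7 of 7. Median totals moved with it, from 1148 to 1816 counts per cell in the lowest group to 736 to 1285.5 in the highest, and the part of the totals in the raw counts was not tested. The groups follow the KLRG1 centred log ratio, so cells with 0 KLRG1 counts are ordered only by their average over the panel. At week 4, groups 1 and 2 both had a median of 0 KLRG1 counts, on median totals of 1148 and 816. The CD127 centred log ratio averaged -0.83 in the lowest group and -1.31 in the highest. By CD90.2 level the medians went from 6.86 to 9.71, higher in 6 of 7, and by CD3 level from 10.7 to 5.57, lower in 7 of 7. Median totals rose by CD90.2 level too, from 638 to 1940 at week 5. The CD127 centred log ratio went from -1.15 to -0.88 by CD90.2 level, higher in 7 of 7. By CD3 level it went from -0.98 to -1.23, lower in 7 of 7. By total antibody counts the median CD127 counts went from 4.43 to 16.1 while the centred log ratio moved by -0.02.

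**Figure D4:**
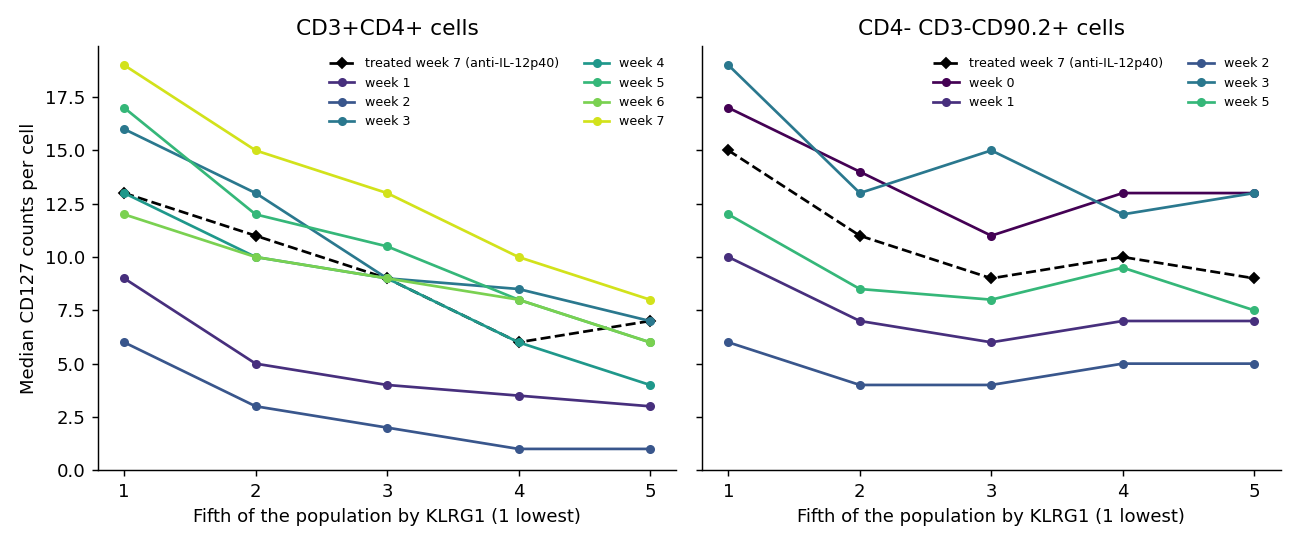
Median raw CD127 counts per cell in 5 equal groups by KLRG1 level (1 lowest, 5 highest) within CD3+CD4+ cells (left) and CD4- CD3-CD90.2+ cells (right), 1 line per library with at least 250 cells in the population. In CD3+CD4+ cells each line ends below where it starts, and in CD4- CD3-CD90.2+ cells the mean over 5 untreated libraries is 12.8 in the lowest group and 9.10 in the highest. Median totals are also lower in the highest than in the lowest group in every library drawn, for example 897 against 1737 in CD3+CD4+ cells at week 5. Groups follow the KLRG1 centred log ratio, so cells without KLRG1 counts are ordered only by their average over the panel.

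The same split in CD4- CD3-CD90.2+ cells gave a similar centred difference but little in counts. The difference of KLRG1+ from KLRG1- cells was -0.52, -0.44, -0.34, -0.33, -0.34, -0.42 and -0.18 at weeks 0 to 6, with a mean of -0.37 ± 0.11 (SD, n = 7; lower in 7 of 7; exact sign-flip permutation p = 0.016, adjusted p = 0.025; 100% of 4 antibodies passed). Median counts were 13 against 15, 7 against 8, 5 against 5, 13 against 15, 7.5 against 9, 9 against 10 and 7.5 against 8. Ly-6G differed by -0.34, the ratio of CD127 to Ly-6G by -0.03 (adjusted p = 0.48, exact sign-flip permutation test), and scaled counts by -0.073 (adjusted p = 0.23). Whether the KLRG1 difference was larger in CD3+CD4+ than in CD4- CD3-CD90.2+ cells was tested over the 6 libraries with both: the gap was -0.09 ± 0.20 on the centred scale (SD; exact sign-flip permutation p = 0.31) and -0.26 ± 0.31 relative to Ly-6G (exact p = 0.13), so no difference was shown. This test was added after the data were seen.

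The CD103 differences depended on the scale. In CD3+CD4+ cells the difference between CD103+ and CD103- cells was 0.09, 0.18, 0.01, 0.04, 0.02 and 0.14 at weeks 2 to 7, a mean of 0.080 ± 0.070 (SD, n = 6; higher in 6 of 6; exact sign-flip permutation p = 0.031, adjusted p = 0.038; 87.5% of 8 antibodies passed). Median counts were higher on CD103+ cells, 15 against 10 at week 3 and 17 against 12 at week 7, and so were their median totals (1577 against 1396 and 1476 against 1287). Thinned to 200 counts per cell the difference was -0.020 (adjusted p = 0.29 in the exact permutation test), and the treated library had -0.10. Relative to Ly-6G the difference was larger, at 0.33 (exact sign-flip permutation p = 0.031, adjusted p = 0.057), and with scaled counts it was 0.22 (exact p = 0.031, adjusted p = 0.052). Neither passed after adjustment, although 0.031 is the smallest p that 6 libraries allow. Without any 1 of weeks 2 to 7 the centred difference was 0.059 to 0.093 and did not pass (adjusted p = 0.073, exact sign-flip permutation test). With fewer than 6 libraries the smallest p of that test is above 0.05, so it could not have passed. In CD4- CD3-CD90.2+ cells CD103+ cells were at -0.20 ± 0.13 (SD, n = 6; exact sign-flip permutation p = 0.062, adjusted p = 0.070; 75% of 4 antibodies passed), and relative to Ly-6G and with scaled counts at 0.10 and 0.16, the opposite direction. Thinned to 200 counts the difference in these cells passed at -0.197 (adjusted p = 0.036, exact sign-flip permutation test).

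**Figure D5:**
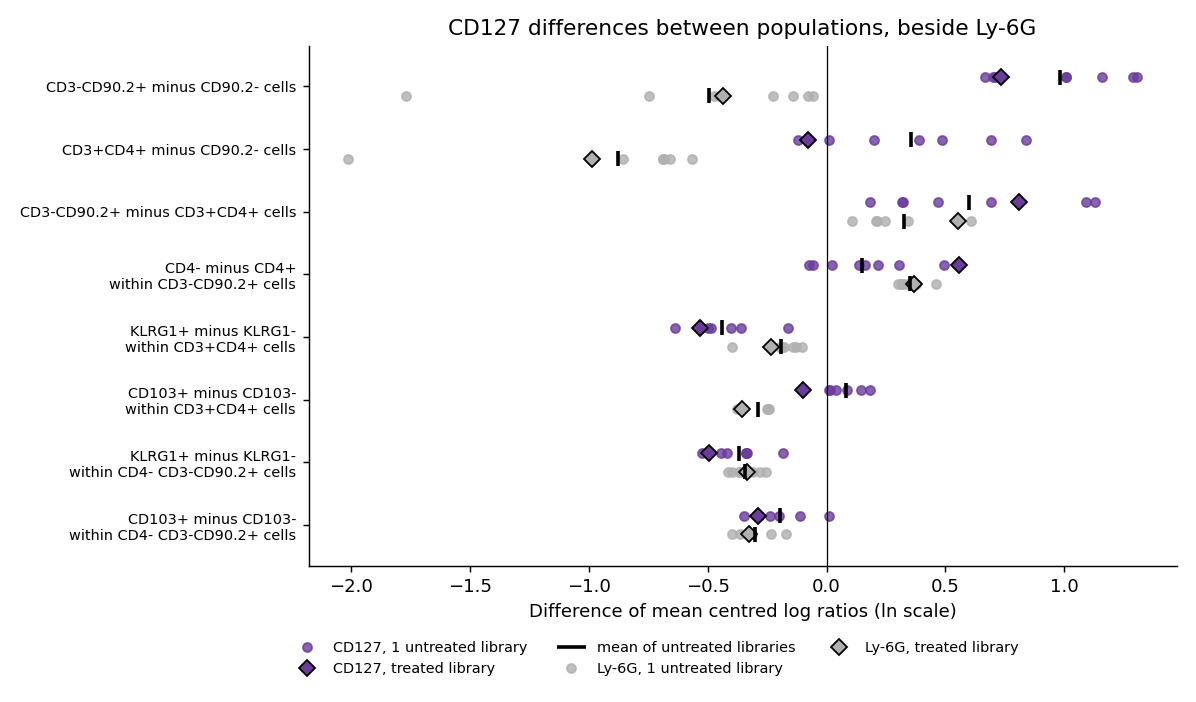
Difference of mean centred log ratios between populations (ln scale) for CD127 (purple) and Ly-6G (grey), 1 point per untreated library, with diamonds for the anti-IL-12p40 library and ticks for the mean of the untreated libraries. CD127 and Ly-6G move apart in the contrasts with CD90.2- cells, and overlap in both splits of CD4- CD3-CD90.2+ cells. The CD90.2- cells include CD11b+Ly-6G+ cells (46.3% of them at week 7), so Ly-6G is not a background measure in the contrasts with them.

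Across weeks no CD127 trend passed, in levels or in differences from the reference (0 of 7 with adjusted p under 0.05 in the exact permutation test of Spearman's rho, and 0 of 7 with unadjusted p under 0.05). In CD3-CD90.2+ cells rho was -0.62 over 8 libraries (exact permutation p = 0.115, adjusted p = 0.23), where 16.7% of the 6 antibodies passed. Pearson r was -0.76 there (exact permutation p = 0.030, adjusted p = 0.090). Without weeks 0 and 7 it was -0.94 (exact p = 0.017; Pearson r = -0.92, exact p = 0.0056; n = 6), and without week 7 alone -0.96 (adjusted p = 0.045), a call that the week 7 library decides. Its CD4- cells had rho = -0.60 (exact permutation p = 0.13, adjusted p = 0.23; 0% of 5 antibodies passed) and r = -0.70 (exact p = 0.055, adjusted p = 0.13). With thresholds fitted in each library the CD4- cells had rho = -0.93, which passed (adjusted p = 0.039, exact permutation test). With counts scaled to the library median total the direction turned in both, to 0.24 and 0.40, neither of which passed.

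In CD3+CD4+ cells rho was 0.61 over 7 libraries (exact permutation p = 0.17, adjusted p = 0.26) and Pearson r was 0.66 (exact p = 0.097, adjusted p = 0.18), and without weeks 1 and 7 r was 0.74 (exact p = 0.15). The direction turned relative to Ly-6G (rho = -0.39) and with thresholds fitted in each library (rho = -0.095), and neither passed. Their margin over CD90.2- cells had rho = 0.75 (exact permutation p = 0.066, adjusted p = 0.19) and r = 0.75 (exact p = 0.059, adjusted p = 0.13), with r = 0.48 without weeks 1 and 7. None of the antibodies passed for either (0% of 9 and 0% of 8). In CD90.2- cells rho was -0.50 (exact permutation p = 0.22, adjusted p = 0.32; 0% of 10 passed) and r was -0.45 (exact p = 0.25, adjusted p = 0.35). The differences of CD3-CD90.2+ cells and of their CD4- cells from the reference had rho of -0.33 and -0.31 (adjusted p = 0.55 and 0.57), Pearson r of -0.43 and -0.28 (exact p = 0.28 and 0.49), where 16.7% of 6 and 20% of 5 antibodies passed. Scaled to the library median total these rho were 0.43 and 0.50, and that of the level in CD90.2- cells was 0.

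Anti-IL-12p40 was compared at week 7 as 1 library against 1, with no test. A difference was called large at 1.5 times or more on the ln scale (0.405) with the treated value outside untreated weeks 5 to 7. In CD3+CD4+ cells CD127 was -0.74 with treatment and -0.61 without (difference -0.13, not large; 22.2% of 9 antibodies were large). Median counts were 9 and 13, on median totals of 1915 and 1332, and CD127 took 0.532% and 1.02% of the counts. CD90.2 was 0.74 higher in the treated cells, and with counts scaled to the library median total the CD127 difference was -0.44, past the size rule. Relative to Ly-6G the direction turned, to 0.88, also past the rule, beside a median of 2 Ly-6G counts with treatment and 10 without. KLRG1+ cells were 1695 of 8181 with treatment and 1283 of 10433 without, and KLRG1- cells alone had medians of 10 and 14 counts.

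In CD3-CD90.2+ cells CD127 was 0.07 with treatment and -0.29 without (difference 0.36, not large; 50% of 6 antibodies were large), with medians of 11 and 14.5 counts. CD4- cells of the gate, 1861 with treatment and 99 without, were at 0.14 and -0.18 (difference 0.33, not large; 40% of 5), with medians of 11 and 10 counts and shares of 1.12% and 1.39%. Their treated level lay above untreated weeks 2 to 7 (-0.71 to -0.18) and beside weeks 0 and 1 (0.23 and 0.14). With CD127 left out of the cell mean the difference in all CD3-CD90.2+ cells was 0.41, past the size rule. Scaled to the library median total, both differences were near 0, at -0.04 and 0.06. Relative to Ly-6G they were 1.11 and 1.27, beside a median of 2 Ly-6G counts on these cells with treatment and 10 and 9 without.

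CD90.2- cells had the one difference past the size rule, 0.64 (-0.66 with treatment, -1.30 without; 60% of 10 antibodies were large). Their median counts were lower with treatment, 4 against 8, on median totals of 283.5 against 2215. Their makeup also differed: the unmarked cells were 30.8% of them with treatment and 5.58% without, and CD11b+Ly-6G+ cells 4.31% and 46.3%. Among CD90.2- CD3- cells with a myeloid protein the difference was 0.33, not large, with cells of at least 200 counts it was 0.29, and thinned to 200 counts it was 0.19. Relative to Ly-6G, among the CD90.2- cells under the Ly-6G threshold, it was 1.02. That restriction leaves out CD11b+Ly-6G+ cells, whose share differed between the libraries. The margin of CD3-CD90.2+ over CD90.2- cells was 0.73 in the treated library, inside the untreated range, and that of CD3+CD4+ cells was -0.08.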

How the data were processed

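Surface proteins were measured in 9 of the series' 64 samples, and the other 55 were not analysed here. Per barcode, the authors deposited raw counts of 11 antibodies, in whole numbers without normalization. About 16000 cells were loaded per sample, per the labels' protocols, and 3 libraries hold more barcodes than that. Cell Ranger 6.0.2, Seurat 4.1.1 and mm10 stand in the submitters' processing notes, without their roles. No source used here states how the barcodes were selected. SCID tissue was taken every 7 days.

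Of 131917 barcodes 130442 were kept, after those under 50 counts and the top 1% of each library were removed. No doublet caller was run, so doublets remain. Counts were centred per cell as natural logs with a pseudocount of 1. Thresholds came from a 2-component Gaussian mixture on 2000 cells per library. Populations with under 50 cells in a library were left out of tests. Contrasts used exact sign-flip permutation tests over libraries (48 tests) and trends exact permutation tests of Spearman's rho (49 tests), both two-sided with Benjamini-Hochberg adjustment at 0.05 over all antibodies. The p-values measure the spread over libraries. Each library is 1 pool at its own week, so pool and week cannot be told apart in it. Counts of cells carry counting error only. The steps were tested on simulated data. Named antibodies are CD127, Ly-6G as the reference antibody, the gating proteins and those most and least like CD127. The marker, lists and tests were chosen with earlier results of these data known. Alternatives were other scalings, thinning, thresholds, count filters, references and leaving out each library. The gene position is from the GENCODE annotation of GRCm38, the assembly that mm10 names. Computation used Python 3.11.15, numpy 2.4.6, pandas 2.3.3, scipy 1.17.1, scikit-learn 1.9.0 and matplotlib 3.10.9.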

Additional observations from a re-analysis of the deposited data

Results flagged for a closer look

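CD127 moved in opposite directions between populations when the week 7 library with anti-IL-12p40 was set against the untreated one. It was lower in CD3+CD4+ cells (-0.13) and higher in CD90.2- cells (0.64), a gap of 0.77 on the ln scale. For CD3-CD90.2+ cells (0.36) the gap to CD3+CD4+ cells was 0.49, and for their CD4- cells (0.33) it was 0.46. The value in CD3+CD4+ cells lay inside untreated weeks 5 to 7 and was not large. The opposite directions depended on the scale. Relative to Ly-6G, among cells under the Ly-6G threshold, all were positive. They were 0.88 in CD3+CD4+, 1.02 in CD90.2-, 1.11 in CD3-CD90.2+ and 1.27 in CD4- CD3-CD90.2+ cells. Ly-6G itself was lower with treatment in each of these populations, at -1.06 in CD3+CD4+ cells. Scaled to the library median total, CD90.2- and CD3+CD4+ cells kept opposite directions, and CD3-CD90.2+ cells were near 0. Thinned to 200 counts, CD90.2- cells differed by 0.19, smaller but still positive. Each rests on 1 library per condition, so none of these differences was tested.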

How the results depend on the processing

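No paired analysis was possible between libraries because each week and condition has 1 library, while populations were compared within the same library throughout. CD127 stayed higher in CD3-CD90.2+ than in CD90.2- and CD3+CD4+ cells, and passed, under all settings but some that left out 1 library (0.93 to 1.03, and 0.51 to 0.67). Without week 2, 3, 4 or 5 the adjusted p rose to the threshold for these and for KLRG1+ against KLRG1- cells in CD3+CD4+ (-0.49 to -0.41) and CD4- CD3-CD90.2+ cells (-0.40 to -0.34), where fewer libraries raise the smallest p possible. CD103 in CD3+CD4+ cells (0.059 to 0.093) passed only without week 0 or 1, neither of which is in that contrast. Without any 1 of its own weeks too few libraries were left for it to pass. Another 2 results passed once: CD3+CD4+ against CD90.2- cells without week 1 (0.28 to 0.44 in all) and the trend in CD3-CD90.2+ cells without week 7 (-0.96 to -0.43). CD103 in CD4- CD3-CD90.2+ cells gave -0.24 to -0.16, and CD4- against CD4+ cells 0.10 to 0.18. Trends gave 0.37 to 0.83 in CD3+CD4+, -0.93 to -0.39 in CD4- CD3-CD90.2+ and -0.71 to -0.29 in CD90.2- cells, and differences from CD90.2- cells 0.60 to 0.94, -0.46 to -0.14 and -0.43 to -0.18 for CD3+CD4+, CD3-CD90.2+ and their CD4- cells.

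CD3+CD4+ against CD90.2- cells passed relative to Ly-6G (0.67), when thinned to 200 counts (0.21), with thresholds fitted in each library (0.37), with at least 200 counts (0.44), with median centring (0.48), and against CD90.2- cells with a myeloid protein (0.55), of the CD64+Ly-6C- phenotype (0.55) and of the CD11b+Ly-6G+ phenotype (0.79). It did not pass against CD90.2- CD11c+CD64- cells (0.34) or scaled to the library median total (0.24). Nor did it pass with CD127 left out of the cell mean and gates, or with no filter on totals. The same held with the treated library and against CD90.2- CD3- CD4- cells. The myeloid, CD11c+CD64-, CD64+Ly-6C- and CD11b+Ly-6G+ references were chosen after seeing the data.

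Scaled to the library median total, KLRG1 and CD103 gave -0.29 and 0.22 in CD3+CD4+ cells and -0.073 and 0.16 in CD4- CD3-CD90.2+ cells, none passing, and rank correlations with week were 0 in CD90.2-, 0.24 in CD3-CD90.2+ and 0.40 in CD4- CD3-CD90.2+ cells, and 0.43 and 0.50 for the differences of the last 2 from CD90.2- cells. Relative to Ly-6G the same splits gave -0.28, 0.33, -0.027 and 0.10, CD4- against CD4+ cells -0.21, none passing, and the trend in CD3+CD4+ cells -0.39. Thinned, CD4- against CD4+ cells gave 0.22 and CD103 gave -0.020 in CD3+CD4+ and -0.197 in CD4- CD3-CD90.2+ cells. With the treated library these were 0.195, 0.054 and -0.21, and with median centring the last was -0.23. CD4- against CD4+ cells passed under thinning and with the treated library, CD103 in CD4- CD3-CD90.2+ cells under these and median centring, and CD103 in CD3+CD4+ cells under neither thinning nor the treated library. Thresholds fitted in each library gave trends of -0.095 in CD3+CD4+ and -0.93 in CD4- CD3-CD90.2+ cells, the latter passing. Of the other references, CD90.2- CD3- CD4- cells gave a trend of 0 for the CD4- CD3-CD90.2+ difference, and CD11b+Ly-6G+ cells one of 0.048 in the reference itself. The cause was not tested for any of these.

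For treated against untreated week 7, scaling to the library median total gave 0.80 in CD90.2-, -0.44 in CD3+CD4+, -0.038 in CD3-CD90.2+ and 0.060 in CD4- CD3-CD90.2+ cells, and Ly-6G as the base 1.02, 0.88, 1.11 and 1.27. In CD90.2- cells thinning gave 0.19, at least 200 counts 0.29, and the myeloid, CD11c+CD64- and CD64+Ly-6C- references 0.33, 0.25 and 0.40. The median share of CD3+CD4+ cells above the reference was 53.6% against CD11b+Ly-6G+ cells 40.1% against the myeloid reference, 1.58% above the 99th percentile and 1.99% after scaling to the library median total. For CD3-CD90.2+ cells it was 80.6% and 67.2%, 4.85% above the 99th percentile and 8.51% after scaling. Thinning left out 0.366% to 13.7% of a library's cells.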
